A study of Oncorhynchus mykiss with 12 samples.

Results

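The circadian clock genes of dorsal skin were compared between 2 colour forms of the rainbow trout (Oncorhynchus mykiss), the wild type and the yellow mutant, called the mutant. They were taken from the RNA-Seq table by symbol, ignoring case and an a or b copy ending. The names were those of the activators (clock, npas2, arntl1, arntl2, bmal1, bmal2), the period and cryptochrome genes (per1 to per3, cry1 to cry5), the REV-ERB and ROR receptors (nr1d1, nr1d2, nr1d4, rora, rorb, rorc), the PAR bZIP factors and their antagonist (dbp, tef, hlfb, nfil3), further repressors (ciart, bhlhe40, bhlhe41) and casein kinases (csnk1d, csnk1e). This rule found 80 of the 42290 entries of the table, under 23 names. The 6 entries with the symbol HLF were counted as copies of hlfb, and without them the rule finds 74. The rule found no entry for arntl1, bmal1, bmal2, per3, cry3 or cry4.

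Each genotype had 3 RNA-Seq libraries of dorsal skin. The series text describes the fish as an F1 generation from wild-type males and yellow mutant females, and its wording can be read as covering both colour forms or the mutant alone. Whether a library is 1 fish or a pool, the age of the fish, the hour of sampling and the light schedule are not given in the labels and files used here. The p-values therefore measure the spread between these libraries, which may be technical. Values are FPKM, read fragments scaled to transcript length and library size, so levels of different genes can be compared. The columns summed to 396278 to 428561 FPKM, and depth relative to wild-type replicate 1 was 0.582 in yellow mutant replicate 2 and between 0.81 and 1.0 in the other libraries. The absolute depth of the libraries is unknown.

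In vertebrates the clock is a feedback loop. CLOCK or NPAS2 pairs with a BMAL protein (arntl genes) and switches on E-box genes, among them the period and cryptochrome genes, whose proteins then block that pair. REV-ERB receptors (nr1d genes) repress and ROR receptors activate the BMAL genes, PAR bZIP factors (dbp, tef, hlf) activate D-box genes that nfil3 represses, and casein kinases mark period proteins for destruction. In zebrafish the cells of peripheral tissues carry clocks that light can set directly, and per2 is one of the genes that light induces there.

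The clock names had from 1 entry (dbp, nr1d4, rorc and cry5) to 7 (hlf), called copies, and dorsal skin expressed most of these copies. Of the 80 copies, 68 reached 0.5 FPKM in at least 3 of the 6 libraries and were tested, while 12 stayed below that level. The copies below it were 2 each of CRY1, CSNK1E, rora and rorb and 1 each of CRY2, ARNTL2, nfil3 and Nr1d1. CRY1 (gene 110502176) was listed at 0 in every library. The ARNTL2 copy (gene 110490501) lay just below the filter, from 0.269 to 0.644 FPKM, and PER2 (gene 110530223) just above it, from 0.266 to 0.758 FPKM. How the authors shared reads among near-identical copies is not stated, so the values of single copies are uncertain. Some symbols go against the product name in the same entry. The nfil3 entries 110486495 and 118940355 are described as filaggrins and NFIL3 118938213 as a probable WRKY transcription factor protein. The low rora entries 110520784 and 110535950 are described as ROR-gamma. The Ciart entries 110496017, 110512379 and 110518845 are described only as uncharacterized, and 110518845 held 44.05% of the summed ciart level.

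**Figure D1:**
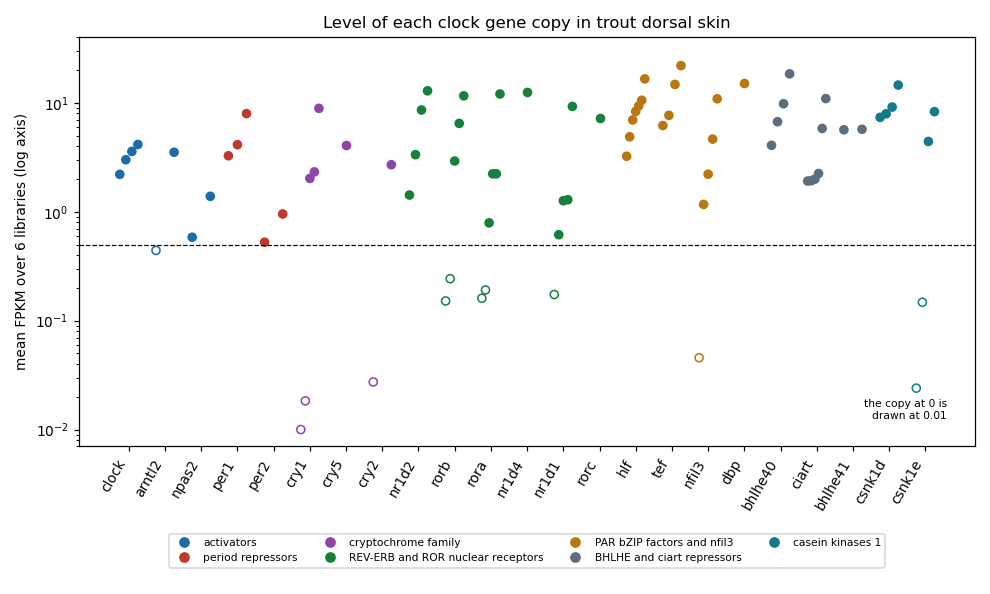
Mean FPKM over the 6 libraries (log axis) of each of the 80 clock gene copies, grouped by gene name and coloured by role, with filled points for the 68 copies tested and open points for the 12 below the filter (dashed line at 0.5 FPKM). Summed over copies, hlf, tef, bhlhe40 and csnk1d held the most and npas2 and per2 the least. Single copies of a name spread widely, and the lowest points are untested copies, among them CRY1 and CSNK1E copies.

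The PAR bZIP genes hlf and tef had the highest mean levels and per2 and npas2 the lowest. Summed over copies, the 7 hlf copies held 59.9 FPKM on average (45.0 to 77.7 over the 6 libraries) and the 4 tef copies 50.5 FPKM (35.2 to 71.6), and these ranges overlap. The 4 bhlhe40 copies followed with 39.0 FPKM and the 4 csnk1d copies with 39.0 FPKM, and their ranges overlap as well (32.4 to 43.7 and 31.5 to 43.0). Both ranges also overlap that of tef. In yellow mutant replicate 1 the tef sum, 35.2 FPKM, lay below those of bhlhe40 (40.4 FPKM) and csnk1d (37.2 FPKM). The REV-ERB gene nr1d2 held 26.2 FPKM in 4 copies and ciart, a repressor of the CLOCK and BMAL pair, 24.8 FPKM in 6 copies. The third PAR bZIP gene, dbp, held 15.2 FPKM in its 1 copy. Among the core repressors, per1 held 15.3 FPKM in 3 copies and cry1 13.2 FPKM in 5 copies, whose ranges overlap, while cry2 held 2.73 FPKM and per2 1.48 FPKM. The activator clock held 12.9 FPKM in 4 copies, arntl2 held 3.96 FPKM and npas2 1.97 FPKM. The npas2 range, 1.415 to 2.611 FPKM, overlaps those of per2 and cry2. The levels of per2, at most 1.96 FPKM, stayed below those of cry2, at least 2.05 FPKM, in every library.

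Within a name, 1 copy often led. Nr1d1 110494235 held 73.5% of the summed nr1d1 level, RORA 118944435 held 68.3% of the rora level, and CRY1 110494045 held 67.1% of the cry1 level. The 7 hlf copies were shared more evenly, and the highest, HLF 110508875, held 27.7%. Of the 4 clock copies, Clock 110513597 held the most, 32.1%.

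The main comparison asks whether clock genes differ in level between the skins of the 2 colour forms. No clock gene passed the test: of 68 copies tested, 0 were called higher and 0 lower in mutant skin (limma on log2(FPKM + 1), Benjamini-Hochberg adjusted over all 27268 genes tested). Over all genes 0.033% were called higher and 0% lower. At an unadjusted p under 0.05, 3 clock copies were higher and 1 was lower, or 4.41% and 1.47% of those tested, beside 3.41% and 2.59% of all genes. Every yellow mutant library lay above every wild-type library for 4 clock copies and below for 3, or 5.88% and 4.41%, beside 6.07% and 4.92% of all genes. These shares lie near the background. Of the 3 copies below, npas2 110537268 and PER2 110530223 reached 0.5 FPKM in 3 wild-type libraries but 1 mutant library. The filter favoured such a difference. The 1 copy lower at an unadjusted p under 0.05 was the same npas2 copy. In the authors' deposited table, 0 of the 80 entries had an FDR under 0.05, beside 0.326% of all entries, and the lowest was 0.548, for hlfb. On the log2(FPKM + 1) scale, the fold changes had 95% intervals inside -1 to 1 for 61 of the 68 copies. The other 7 reached beyond, at the widest from -1.96 to 1.46 for RORA 118944435. Genotype differences smaller than these intervals were not resolved with 3 libraries per genotype. This scale understates the change of low copies, so the count sets no bound on their change in FPKM. For npas2 110537268 and PER2 110530223, both inside, the ratios of mutant to wild-type mean FPKM were 0.563 and 0.561.

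**Figure D2:**
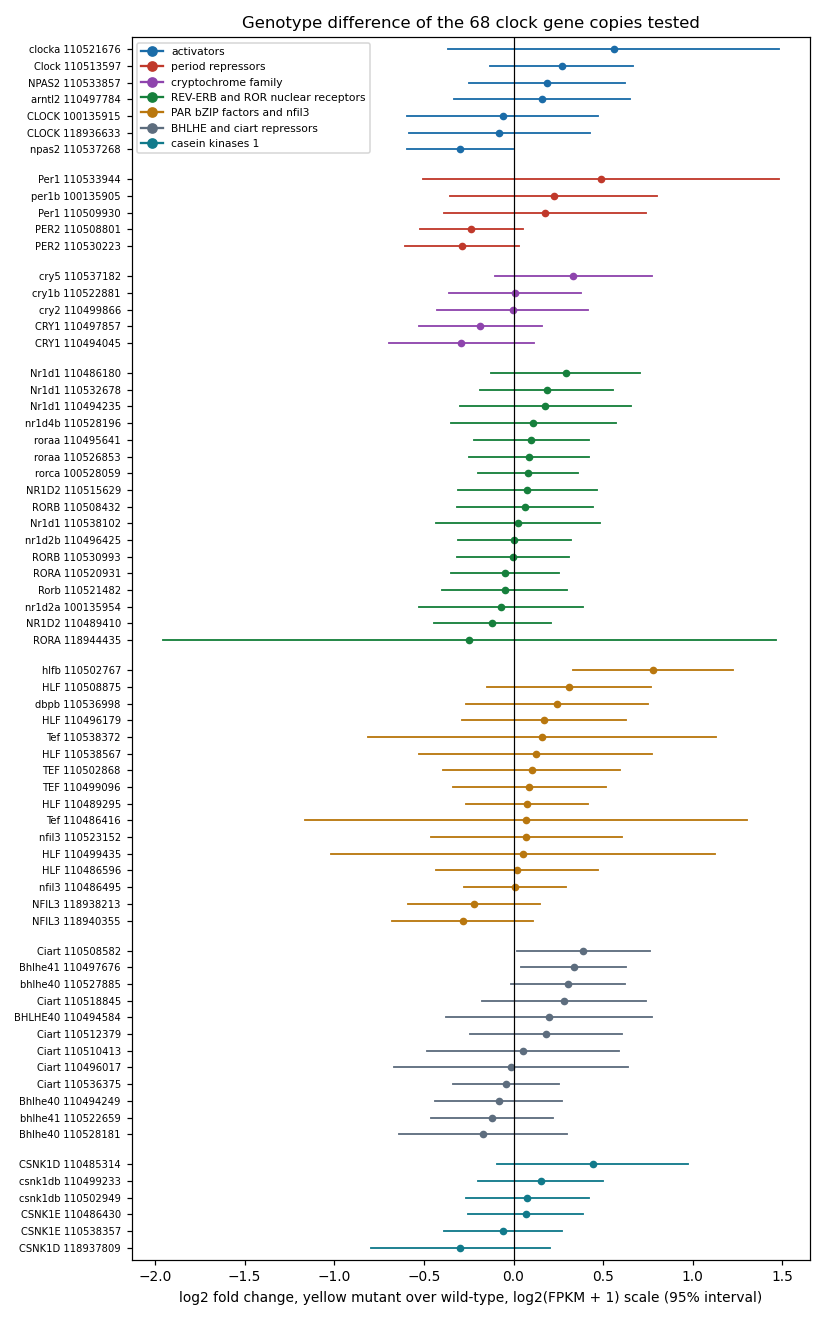
Log2 fold change of each of the 68 clock gene copies tested (points), yellow mutant over wild-type on the log2(FPKM + 1) scale, with 95% intervals from the fit (lines), grouped by role. The intervals of 4 copies leave out 0, those of hlfb, Bhlhe41 110497676, Ciart 110508582 and npas2 110537268, and 0 copies pass after adjustment.

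The share of clock copies with a fold change above 0 depended on which library was left out and on the depth term. The fold change was above 0 for 45 of 68 clock copies (66.2%, beside 53% of all genes tested), and the median was 0.07, beside 0.01 for all genes. Without yellow mutant replicate 2, the library of lowest depth, 36 copies were above 0 (52.9%, beside 52.7% of all genes). Without wild-type replicate 1 there were 35 (51.5%, beside 49.7%), and with relative depth as a term of the fit there were 34 (50%, beside 52.4%). Without any other single library the share was 66.2% to 70.6%, beside 51% to 55.5% of all genes. With other filters, pseudocounts and scalings it was 60.3% to 76.5%, beside 49.5% to 53.6%.

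hlfb (gene 110502767), a PAR bZIP transcription factor, had the smallest p of the clock genes. It was at 5.21, 7.77 and 6.90 FPKM in the wild-type libraries and at 14.0, 9.52 and 12.8 FPKM in the yellow mutant libraries. The groups did not overlap, and the means were 6.63 ± 1.30 and 12.1 ± 2.31 FPKM (SD, n = 3 each), a ratio of 1.83. The mutant lay 0.78 ± 0.19 (SE) above the wild type on the log2 scale, which did not pass (limma, Benjamini-Hochberg adjusted p = 0.534, with 0.361 to 1.0 over the alternatives). The other 6 hlf copies, with the symbol HLF, overlapped between the genotypes and had fold changes of 0.02 to 0.31 on the log2 scale. Summed over the 7 copies, wild-type libraries held 45.0, 57.2 and 58.7 FPKM and mutant libraries 60.6, 77.7 and 60.1 FPKM. The sums, which include the hlfb copy above and so are not independent of it, did not overlap. The difference did not pass (log2 fold change 0.30, limma, Benjamini-Hochberg adjusted p = 0.904 in a fit of levels summed by name). How many of all names summed in this way lack overlap was not counted, so the separation has no background.

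The other PAR bZIP factors showed no separation. TEF (gene 110502868), the most abundant clock copy, was at 17.2, 19.2 and 27.4 FPKM in wild-type skin and 18.8, 25.7 and 23.4 FPKM in mutant skin, with a log2 fold change of 0.10 (95% interval -0.39 to 0.60), whose sign turned without wild-type replicate 1 (-0.03). dbpb (gene 110536998), whose product binds D-box sites, was at 11.7, 15.7 and 13.9 FPKM in wild-type skin and 15.4, 22.1 and 12.7 FPKM in mutant skin. The genotypes overlapped for both genes. The most abundant nfil3 copy (gene 110523152), the D-box repressor, ranged from 8.58 to 12.8 FPKM in wild-type skin and from 7.80 to 13.7 FPKM in mutant skin.

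**Figure D3:**
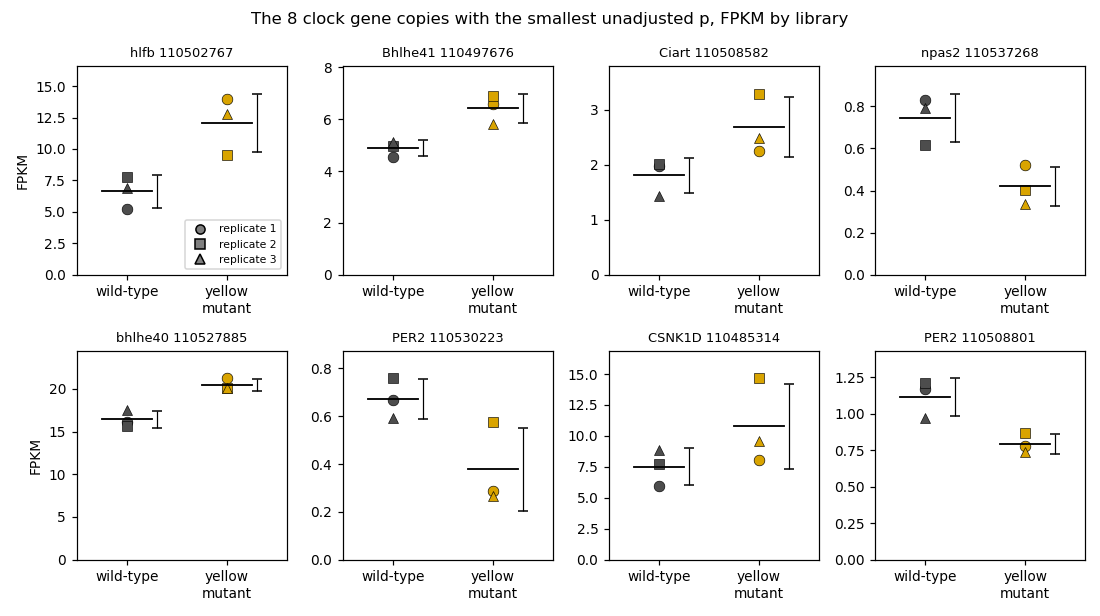
FPKM by library for the 8 clock gene copies with the smallest unadjusted p (symbols mark the replicate number, the horizontal bar the mean and the error bar the SD, n = 3 per genotype). The genotypes do not overlap for 7 of the 8, CSNK1D 110485314 being the exception. Choosing copies by their p favours such separation. Of the 68 copies tested, 5.88% lay wholly above and 4.41% wholly below in the mutant, beside 6.07% and 4.92% of all genes.

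No period gene passed the test. Both per2 copies had fold changes below 0 and the 3 per1 copies above 0, beside 53% of all genes tested above 0. A difference between per1 and per2 was not tested. PER2 (gene 110530223) was at 0.669, 0.758 and 0.591 FPKM in wild-type skin and at 0.289, 0.577 and 0.266 FPKM in mutant skin. PER2 (gene 110508801) was at 1.17, 1.21 and 0.968 FPKM in wild-type skin and at 0.779, 0.868 and 0.734 FPKM in mutant skin. For both copies every yellow mutant library lay below every wild-type library, as for 4.92% of all genes tested. The share of clock copies, 4.41%, includes these PER2 copies. Their fold changes on the log2(FPKM + 1) scale were -0.29 (standard error 0.14) and -0.24 (standard error 0.13). Neither passed (limma, Benjamini-Hochberg adjusted p = 0.864 and 0.875). That scale understates the change of such low copies, whose ratios of mutant to wild-type mean FPKM were 0.561 and 0.713. The lower copy had 3 wild-type libraries but 1 yellow mutant library at the filter of 0.5 FPKM, so the filter favoured such a difference. Summed over both copies per2 was at 1.79 ± 0.207 and 1.17 ± 0.24 FPKM, and its log2 fold change of -0.36 (95% interval -0.70 to -0.03) did not pass either (limma, Benjamini-Hochberg adjusted p = 0.821). The 3 per1 copies overlapped between genotypes and had log2 fold changes of 0.18 to 0.49, with 95% intervals that all span 0. per1b (gene 100135905), the most abundant, was at 7.90, 8.97 and 4.97 FPKM in wild-type skin and 10.4, 9.39 and 6.11 FPKM in mutant skin.

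A list of genes that respond to glucocorticoids and to acute stimulation also holds the 3 per1 copies, since per1 is such a gene in mammals. In that list 42 of the 53 entries tested had a fold change below 0 (median -0.36), 12 were lower and 0 higher at an unadjusted p under 0.05, beside 2.59% and 3.41% of all genes tested, and 0 passed. JUND (gene 110530134), an AP-1 transcription factor, was at 11.98, 18.0 and 11.5 FPKM in wild-type skin and 6.54, 7.17 and 7.06 FPKM in mutant skin (adjusted p = 0.386, limma with Benjamini-Hochberg). egr1 (gene 110537802), an early response factor, was at 6.66 ± 1.68 and 2.44 ± 1.17 FPKM. Summed over the 69 entries of the list, the level was 543 to 882 FPKM in wild-type skin and 373 to 594 FPKM in yellow mutant libraries. The part of these genes in the values of the period genes was not tested.

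Cryptochromes, the partners of the period proteins, did not pass. CRY1 (gene 110494045) was at 8.502, 10.1 and 10.97 FPKM in wild-type skin and at 6.30, 9.41 and 8.07 FPKM in mutant skin, and the genotypes overlapped. Its log2 fold change was -0.29 (95% interval -0.69 to 0.11). Summed over its 5 copies cry1 was at 13.3, 14.1 and 15.8 FPKM in wild-type skin and 11.5, 13.0 and 11.9 FPKM in mutant skin. These sums did not overlap, and they did not pass (log2 fold change -0.23, limma, Benjamini-Hochberg adjusted p = 0.886). The share of all summed names without overlap was not counted. cry5 (gene 110537182), named in zebrafish for a photolyase that repairs light damage in DNA, was at 2.52, 3.74 and 4.44 FPKM in wild-type skin and 4.64, 3.997 and 5.45 FPKM in mutant skin, with overlap. A list of DNA repair genes, several of which light induces in fish, also holds cry5. In that list 10 of 13 tested entries had a fold change above 0, beside 53% of all genes tested (median 0.08), and 0 passed. The smallest p in it belonged to ercc3 (gene 110516736), a helicase of nucleotide excision repair, at 0.724 ± 0.431 and 1.26 ± 0.175 FPKM.

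The activators did not pass either, and the 7 tested copies had 4 fold changes above 0 and 3 below. npas2 (gene 110537268), an alternative partner of BMAL, was at 0.83, 0.615 and 0.793 FPKM in wild-type skin and 0.522, 0.401 and 0.336 FPKM in mutant skin. The groups did not overlap, and the log2 fold change of -0.30 (standard error 0.13) did not pass (limma, Benjamini-Hochberg adjusted p = 0.83). It is on the log2(FPKM + 1) scale, and the ratio of mutant to wild-type mean FPKM was 0.563. This npas2 copy was low. Its yellow mutant libraries reached the filter of 0.5 FPKM in 1 of 3, so the filter favoured such a difference. NPAS2 (gene 110533857) was at 1.07, 1.08 and 1.49 FPKM in wild-type skin and 1.38, 2.21 and 1.08 FPKM in mutant skin, so the genotypes overlapped. Clock (gene 110513597) was at 3.94, 3.35 and 3.61 FPKM in wild-type skin and 4.22, 6.04 and 3.70 FPKM in mutant skin. The widest spread of the activators was that of clocka (gene 110521676), at 2.92, 2.26 and 2.15 FPKM in wild-type skin and 3.23, 8.805 and 2.1 FPKM in mutant skin, where replicate 2 stood alone.

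BMAL1 itself was present under the symbol Arntl, which the rule does not take. All 5 Arntl entries were tested, as part of a list of other clock regulators. Their means lay between 1.18 and 4.99 FPKM, their log2 fold changes between -0.25 and 0.04, and 0 passed. In that list of 84 entries, which also holds ubiquitin ligases, kinases and cofactors of the clock proteins, 79 were tested, 48 had a fold change above 0 and 0 passed (median 0.03). The smallest p belonged to CSNK2A2 (gene 110517756), a catalytic subunit of casein kinase 2, at 6.38 ± 0.402 and 8.40 ± 0.999 FPKM (limma, Benjamini-Hochberg adjusted p = 0.80).

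REV-ERB and ROR receptors, which repress and activate the BMAL genes, did not pass. Of 17 tested copies 0 had an unadjusted p under 0.05, and their fold changes ran from -0.25 to 0.29 on the log2 scale. nr1d2a (gene 100135954), the most abundant of them, was at 11.04, 15.1 and 13.3 FPKM in wild-type skin and 9.97, 15.7 and 12.1 FPKM in mutant skin. Nr1d1 (gene 110486180), with the smallest p of the group, was at 0.956, 0.714 and 1.45 FPKM in wild-type skin and 1.12, 1.58 and 1.75 FPKM in mutant skin, with overlap. rorca (gene 100528059), a ROR receptor, had the narrowest relative range of the 68 tested copies, from 6.61 to 7.61 FPKM over the 6 libraries.

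Among the E-box repressors 3 of 12 copies lay higher in every yellow mutant library, beside 6.07% of all genes tested and 5.88% of all clock copies, and none passed. Bhlhe41 (gene 110497676), which competes for E-box sites, was at 4.54, 4.98 and 5.13 FPKM in wild-type skin and 6.57, 6.90 and 5.81 FPKM in mutant skin. bhlhe40 (gene 110527885), its relative, was at 16.1, 15.6 and 17.5 FPKM and at 21.2, 20.1 and 20.1 FPKM. Ciart (gene 110508582) was at 1.974, 2.004 and 1.436 FPKM and at 2.25, 3.29 and 2.49 FPKM. Their log2 fold changes were 0.33, 0.30 and 0.39, and 0 passed (limma, Benjamini-Hochberg adjusted p = 0.778, 0.854 and 0.822). In the other 9 copies the genotypes overlapped. Their log2 fold changes were -0.12 for bhlhe41 (gene 110522659), -0.17 to 0.20 for the other 3 bhlhe40 copies and -0.04 to 0.28 for the other 5 ciart copies. Summed over copies, bhlhe40 was at 36.7 ± 3.74 and 41.4 ± 2.08 FPKM, with no overlap and no call. A background share of such separations was not counted for sums. The bhlhe41 sum was 10.9 ± 0.867 and 11.8 ± 0.715 FPKM. The ciart sum was 22.8 ± 1.80 and 26.9 ± 5.01 FPKM, with overlap.

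Casein kinase copies did not pass. csnk1db (gene 110502949), the most abundant, was at 12.3, 15.0 and 15.2 FPKM in wild-type skin and 14.5, 14.3 and 16.0 FPKM in mutant skin. CSNK1D (gene 110485314) was at 5.95, 7.75 and 8.86 FPKM and at 8.03, 14.6 and 9.62 FPKM, with overlap and a log2 fold change of 0.44 (95% interval -0.09 to 0.98). The 2 tested csnk1e copies had 95% intervals inside -0.40 to 0.40.

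Libraries of 1 genotype differed from each other in clock genes. Copies of the period genes, of tef and of several other names often had their extremes in the same library. All 5 period copies were highest in wild-type replicate 2 and lowest in wild-type replicate 3, beside 30.3% and 30.9% of all genes tested. All 5 were lowest in yellow mutant replicate 3, beside 31.4%. In the mutant 4 of the 5 were highest in replicate 2, beside 35%, and per1b was highest in replicate 1. Per1 (gene 110533944) was at 1.90, 4.12 and 1.46 FPKM in wild-type skin and 4.93, 5.62 and 1.57 FPKM in mutant skin. Per1 (gene 110509930) followed the same order, at 3.98, 5.20 and 2.40 FPKM and at 4.52, 5.33 and 3.32 FPKM. The tef copies had another order. All 4 were highest in wild-type replicate 3, beside 40.9% of all genes tested. In the mutant all 4 were highest in replicate 2 and lowest in replicate 1, beside 35% and 31.2%. The lowest wild-type value was in replicate 1 for 2 tef copies and in replicate 2 for 2. Other names had shared extremes too. All 4 csnk1d copies were highest in wild-type replicate 3 and lowest in wild-type replicate 1 (beside 42.5% of all genes tested). All 4 tested rora copies were highest in wild-type replicate 3, and all 4 nr1d2 copies in yellow mutant replicate 2. The hlf and ciart copies were split among libraries. Copies of 1 name may share reads and are not independent.

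In the mutant the widest ranges relative to level were those of RORA 118944435, Tef 110486416 and clocka 110521676 (4.19-fold), followed by HLF 110499435 and Per1 110533944. In the wild type Per1 110533944 had the widest, 2.83-fold. RORA (gene 118944435) was at 10.8, 7.01 and 18.3 FPKM in wild-type skin and at 2.45, 16.2 and 17.5 FPKM in mutant skin, so that yellow mutant replicate 1 stood apart, 7.15-fold below replicate 3. Tef (gene 110486416) was at 4.99, 4.86 and 11.8 FPKM and at 3.19, 13.9 and 7.29 FPKM. Tef (gene 110538372) was at 10.9, 10.6 and 18.5 FPKM and at 7.51, 25.2 and 15.8 FPKM. HLF (gene 110499435) was at 2.44, 4.96 and 6.54 FPKM and at 1.95, 6.11 and 7.25 FPKM, lowest in replicate 1 of each genotype.

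**Figure D4:**
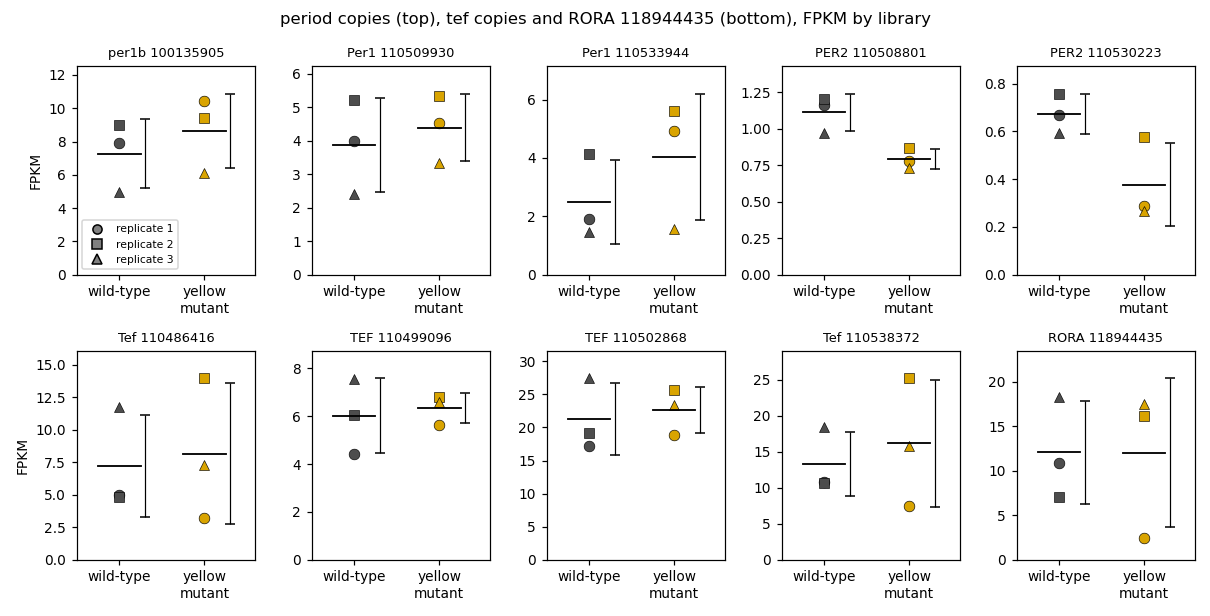
FPKM by library for the 5 period copies (top row) and for the 4 tef copies and RORA 118944435 (bottom row), with symbols for the replicate number, a bar for the mean and an error bar for the SD (n = 3 per genotype). Replicate 3 (triangles) is lowest in both genotypes for the period copies, whereas wild-type replicate 3 is highest for the tef copies and RORA.

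Over all 68 tested copies, yellow mutant replicate 2 held the highest yellow mutant value for 40 (58.8%, beside 35% of all genes tested), and wild-type replicate 1 held the lowest wild-type value for 36 (52.9%, beside 42.5%). The median SD within a genotype was 0.246 on the log2(FPKM + 1) scale for the clock copies and 0.206 for all genes tested. A range over 2-fold among libraries of 1 genotype was seen in 16 clock copies (23.5%), beside 28.7% of all genes tested. A set of E-box target genes (per, nr1d, PAR bZIP, ciart and bhlhe copies, 38 tested) left out the cryptochromes, which are E-box genes too. In the order of the replicate numbers, it deviated on average by -0.12, 0.06 and 0.06 from the wild-type mean. From the yellow mutant mean it deviated by -0.13, 0.24 and -0.11. The ROR element target genes (clock, npas2, arntl2, nfil3, rorca and cry1 copies, 15 tested), which peak at another time of day in mammals, deviated by -0.04, -0.01 and 0.05 and by -0.08, 0.14 and -0.07. This set counts the nfil3 entries described as other products. It leaves out the BMAL1 entries (symbol Arntl), which the rule does not take. The 2 sets therefore do not separate E-box from ROR element genes cleanly.

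**Figure D5:**
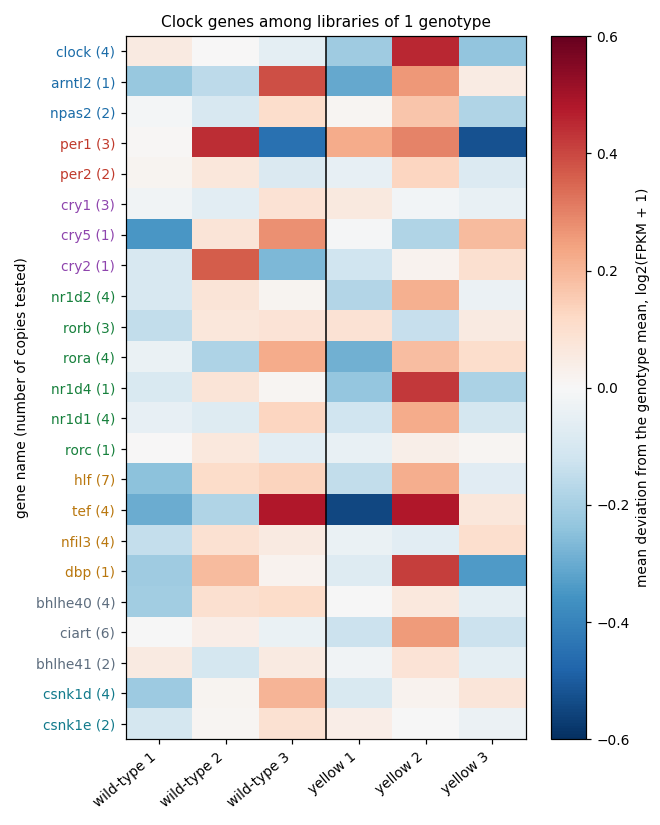
Mean deviation of the tested copies of each clock gene from the mean of their genotype, on the log2(FPKM + 1) scale, in each of the 6 libraries (colour scale from -0.6 to 0.6; number of copies in parentheses). The per1 row is low and the tef row high in wild-type replicate 3, and most rows are above 0 in yellow mutant replicate 2.

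Markers of cell types found in a skin sample also differed between libraries, and fewer cells of a type cannot be told apart from less RNA per cell. Keratinocyte markers, which define skin, summed to 1859 to 2388 FPKM in wild-type skin and 2389 to 2962 FPKM in yellow mutant libraries, with 27 of 36 tested and 1 listed at 0 throughout. Of the 27 tested, 24 had a fold change above 0. Skeletal muscle markers summed to 6354, 2380 and 6741 FPKM in wild-type skin and to 4877, 8980 and 3192 FPKM in yellow mutant libraries, with 63 of 92 tested, 48 of them at a fold change above 0, and 6 at 0 throughout. Mutant replicate 2 was the highest mutant library both in these and in 40 of the 68 clock copies (58.8%, beside 35% of all genes tested). That library was also highest in erythrocyte and in macrophage and leukocyte markers, but lowest in melanophore and dermal fibroblast markers. Wild-type replicate 3 was the highest wild-type library in muscle markers and in 34 clock copies (50%, beside 40.9%). It was also highest in keratinocyte and melanophore markers, but lowest in endothelial, dermal fibroblast and erythrocyte markers. Wild-type replicate 2, highest in the 5 period copies, was lowest in muscle and melanophore markers. It was highest in endothelial, dermal fibroblast, erythrocyte and macrophage and leukocyte markers. Endothelial markers summed to 115 to 174 and 87.9 to 131 FPKM, and all 20 tested had a fold change below 0. Melanophore markers summed to 415 to 445 and 500 to 704 FPKM, with 20 of 24 tested above 0. At an unadjusted p under 0.05 (limma), 14 of the 24 were higher and 0 lower, beside 3.41% and 2.59% of all genes tested. Dermal fibroblast markers summed to 39109 to 48848 and 34164 to 43238 FPKM, with 29 of 40 tested below 0. Macrophage and leukocyte markers summed to 538 to 617 and 619 to 665 FPKM, with 8 of 13 tested above 0. Erythrocyte markers summed to 200 to 581 and 287 to 396 FPKM, with 25 of 39 entries at 0 throughout and 10 of 11 tested below 0. Of all genes tested 53% had a fold change above 0. In these 7 lists 0 entries passed, and their part in the clock gene values was not tested.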

How the data were processed

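RNA-Seq was deposited as 1 table of FPKM values for 6 libraries of dorsal skin, which the authors computed (the unit is per the file headers). Per the submitters' processing notes the tools included TopHat2 2.1.1 and Bowtie2 2.2.8. The labels and files at hand name neither the build nor the counter, nor the rule for fragments that match more than 1 copy. The same table holds the authors' mean FPKM, their log2 fold change and an FDR (an adjusted p-value, deposited without its test). The miRNA table was not used.

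From these values, entries with at least 0.5 FPKM in at least 3 of 6 libraries entered limma 3.58.1 (R 4.3.3) as log2(FPKM + 1). The fit had genotype alone, with trend and robust moderation, and its two-sided p-values were adjusted over all genes tested by Benjamini-Hochberg, with a threshold of 0.05. This scale understates the change of low genes. An exact permutation test of 3 against 3 cannot go below p = 0.1, so none was used. Genes were described by library if they passed, had an unadjusted p under 0.05, or were the most abundant or had the smallest p of their role. Others were shown for their spread among libraries or as copies of these, chosen after their values were seen. Members and lists were chosen with earlier results of these data known. Relative depth was read from the steps of low FPKM values. All 80 gene identifiers matched the RefSeq table of USDA_OmykA_1.1. The alternatives tried were other filters, pseudocounts and scalings, no moderation, depth or replicate number as a term, copies summed, and each library left out. The procedure was tested on simulated data.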

Additional observations from a re-analysis of the deposited data

How the results depend on the processing

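No clock gene was called under any of the 16 alternatives. At an unadjusted p under 0.05, 3 clock genes were higher and 1 lower. With depth as a covariate these counts were 1 and 3, with copies summed the higher count was 0, and the lower count was 0 with the 5 FPKM filter, a pseudocount of 0.1, no trend and robust, or the replicate block. Leaving out 1 library gave 1 to 4 higher (1 without wild-type replicate 1 or 2 or yellow mutant replicate 2) and 0 to 3 lower (3 without yellow mutant replicate 2; 0 without any wild-type replicate or yellow mutant replicate 3). Over all genes 9 were called higher and 0 lower; the higher count was 0 with depth as a covariate and with the replicate block, and the lower count 1 with the 5 FPKM filter and without trend and robust. Leaving out 1 library gave 0 to 10 higher (1 without wild-type replicate 2, and 0 without wild-type replicate 1 or 3 or yellow mutant replicate 3) and 0 to 4 lower (2 and 4 without yellow mutant replicates 1 and 2). With the 5 FPKM filter, 26 of 34 clock copies had a fold change above 0 (76.5%, beside 53.6% of all genes tested).

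Medians of log2 fold change moved from 0.12 to -0.0077 for the bhlhe and ciart copies with depth as a covariate (0.0061 to 0.21 without 1 library), and from -0.01 to -0.29 for the cryptochromes with the 5 FPKM filter, where 1 copy is left (-0.14 to -0.017 without 1 library). Without 1 library the REV-ERB and ROR median was -0.018 to 0.10. Of single copies, TEF 110502868 turned to -0.083 with depth as a covariate and ran from -0.031 to 0.29 without 1 library, nr1d2a from -0.23 to 0.072 and csnk1db 110502949 from -0.016 to 0.13. The causes were not tested. Same-numbered libraries deviated with correlations of 0.12, -0.21 and 0.16 across all genes tested. Across the clock copies these were 0.28, -0.20 and 0.64, while libraries of unlike numbers ran from -0.59 to 0.48. The labels do not say that the numbers mark pairs, so they were not taken as pairs. With the replicate block 0 clock genes were called and the fold changes are by construction the same. Summing copies gives 1 value per name and so no value per copy.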

Other observations

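Genes for light input and melatonin were scarce in dorsal skin. Of 43 entries for non-visual opsins, melatonin synthesis and melatonin receptors, 6 were tested and 12 were listed at 0 in every library. The smallest p of the tested entries belonged to opn8b (gene 110522433), an opsin. It was at 1.07, 1.09 and 1.23 FPKM in wild-type skin and 0.779, 0.451 and 0.797 FPKM in mutant skin. The groups did not overlap, and the difference did not pass (limma, log2 fold change -0.35, Benjamini-Hochberg adjusted p = 0.802). Picking it by its p favours such separation, and 4.92% of all genes tested lay lower in every yellow mutant library. OPN5 (gene 110522287), a short-wavelength opsin and the most abundant of the 6, was at 1.96 ± 0.0777 and 2.11 ± 0.659 FPKM.

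In a list of clock output genes of metabolism and cell division, 15 of 26 tested entries had a fold change below 0 (median -0.10) and 0 passed. Of all genes tested, 53% had a fold change above 0. PPARA (gene 110521393), a nuclear receptor of fatty acid oxidation, was at 11.8, 14.6 and 9.87 FPKM in wild-type skin and 9.05, 4.69 and 7.39 FPKM in mutant skin. tsku (gene 110504045), a secreted leucine-rich protein, was at 9.63, 9.40 and 7.65 FPKM and at 7.28, 5.403 and 5.385 FPKM. Neither gene overlapped between genotypes, and both had a Benjamini-Hochberg adjusted p of 0.733 (limma). They were picked for the smallest adjusted p of the list, which favours such separation. Of all genes tested, 4.92% lay lower in every yellow mutant library. WEE1 (gene 110521275), a mitotic kinase under clock control in mouse liver, was at 2.77 ± 0.343 and 2.12 ± 0.382 FPKM, with overlap between the genotypes.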
